A study of Sus scrofa with 24 samples.

Results

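The transient state of the newborn pig was described from 18 of the 24 arrays of the series, as the transcripts that stood higher or lower at 1 day post natum (1 dpn) than both before and after it. The groups were 6 animals at 94 days post conception (94 dpc, late gestation), 6 at 1 dpn and 6 at 28 dpn, with 1 Affymetrix Porcine Genome array per animal. All were offspring of German Landrace gilts that received a gestational high protein [HP] diet, so every group shared that diet, and no other treatment or allele is named. The offspring of 3 gilts were sampled per stage without a record of which animals shared a mother, so some of the 6 share a mother, and the p-values, which treat them as independent animals, can be too small. Sex and processing batch are not given either. For each probe set, a group of short oligonucleotides that reads 1 transcript, the contrast was the mean log2 signal at 1 dpn minus the average of the means at 94 dpc and 28 dpn. A transcript was said to peak or to dip at 1 dpn when this contrast and both single comparisons, with 94 dpc and with 28 dpn, passed an adjusted p of 0.05 in the same direction (limma, Benjamini-Hochberg over 23935 probe sets). The values are the deposited scaled signals in arbitrary units, stage means are geometric means given in the order 94 dpc, 1 dpn and 28 dpn, and a level is not compared between probe sets. The 6 arrays of 188 dpn entered only as an outside comparison.

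Birth ends the placental supply of glucose, and the piglet then lives on fat-rich colostrum and milk while it holds its body temperature largely by muscle work. The PPAR transcription factors sense fatty acids and switch on genes that carry, activate and oxidise them in mitochondria, while molecular chaperones assist newly made and stressed proteins. The growth hormone receptor, the glucocorticoid receptor and myostatin carry hormone and growth factor signals to muscle, and cyclins and their partners drive the division of the cells between and beside the fibres.

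The tissue is given as liver in the sample labels but as muscle in the title of the series, and both were checked with marker genes. The median of 12 skeletal muscle markers ranked at percentile 99.5 to 99.9 of the probe sets on the 18 arrays, beside a background signal of 74.7, the 95th percentile of 17 Tag control probe sets. The median of 15 hepatocyte markers ranged from 72.7 to 1006 at 94 dpc, from 67.6 to 1348 at 1 dpn and from 63.6 to 212 at 28 dpn, and their summed signal from 8202 to 61972, from 3054 to 34505 and from 3318 to 8319. None of the 15 peaked or dipped, and their ranges in the 3 stages overlapped. At 1 dpn the median was 1035, 1348 and 814 in animals 1, 3 and 6 but 67.6, 77.0 and 86.7 in animals 2, 4 and 5. With such a spread within the stage a call could hardly pass, so the absence of calls does not show an equal level. In tissue samples like these, fewer cells of a type and less RNA per cell cannot be told apart.

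The 1 dpn arrays stood apart in their control probe sets, and 3 of them more than the others. In the pig GAPDH control, where a low ratio of 5′ to 3′ signal marks shortened RNA or incomplete copying, the ratio was 0.111, 0.296 and 0.254 in 1 dpn animals 1, 2 and 3, called here the low-ratio arrays, and 1.14, 0.841 and 1.04 in animals 4, 5 and 6, the high-ratio arrays. The neighbouring stages spanned 1.12 to 1.26 and 1.07 to 1.29, and the dividing ratio of 0.5 fell in the gap between 0.296 and 0.841. The dap transcript, a bacterial RNA added during sample preparation, had ratios of 0.0616 to 0.08799 in the low-ratio arrays, 0.183 to 0.229 in the high-ratio arrays and 0.314 to 0.389 and 0.331 to 0.3799 at 94 dpc and 28 dpn. The hybridisation controls had signals of 5555 to 8724 in the newborns, 2183 to 3272 in the fetuses and 3531 to 5277 at 28 dpn. All 6 newborn arrays, the high-ratio ones included, lay outside both neighbours in the dap ratio and the hybridisation controls, and the part of such differences in the contrast cannot be told apart from the stage. The high hepatocyte medians were in low-ratio animals 1 and 3 and in high-ratio animal 6. The median contrast of the 15 hepatocyte markers was 0.76 with the low-ratio and -0.10 with the high-ratio arrays, and their part in other contrasts was not tested. Named genes are given with all 6 newborn arrays and, for most, with the 3 high-ratio arrays alone. Both fits use the same 12 neighbours, so a call in the second is no independent support for the first.

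**Figure D1:**
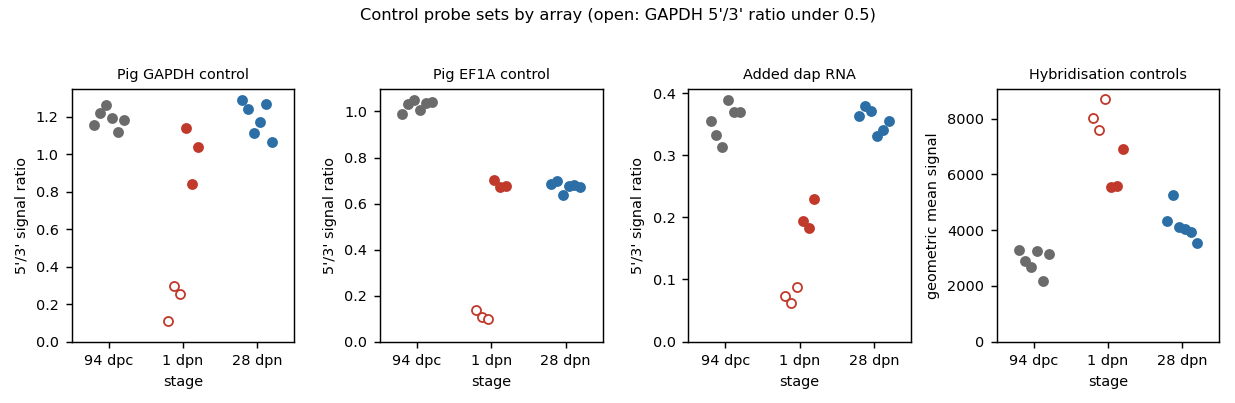
Control probe sets on each array by stage, 6 arrays each: the 5′/3′ signal ratio of the pig GAPDH control, of the pig EF1A control and of the added dap RNA, and the geometric mean signal of 25 hybridisation control probe sets, all on linear axes from 0. Open circles are the 3 arrays of 1 dpn with a GAPDH ratio under 0.5; the 6 arrays of 1 dpn lie below both neighbours for dap and above both for the hybridisation controls.

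The contrast passed the threshold in 2009 probe sets that were higher at 1 dpn (8.39% of 23935) and in 3587 that were lower (15.0%), with a median contrast of -0.08 over all probe sets. Of these, 678 peaked (2.83%) and 1301 dipped (5.44%). With each gene read by its brightest probe set, 331 of 6765 genes peaked (4.89%) and 352 dipped (5.20%), with a median contrast of -0.01 over all genes. The 28 dpn and 94 dpc means did not differ past the threshold in 532 of the 678 peaks and 1104 of the 1301 dips, while 112 peaks stood higher and 34 lower at 28 dpn than at 94 dpc. The share over all probe sets is not given beside these counts, and a call against both neighbours favours probe sets whose neighbours are alike. The counts are therefore no sign of a return to the fetal level. The dips reached further than the peaks: 799 of 1301 dips but 237 of 678 peaks were at least 2-fold against both neighbours, and the 1 dpn mean was under background in 397 dips. The balance of the directions depended on the scaling, since with each array centred on its median signal 1055 probe sets peaked and 866 dipped, with quantile normalization 827 and 981, and with each array centred on its hybridisation controls 46 and 8024. Higher probe sets made up 35.9% of those past the contrast as deposited, 48.6% with quantile normalization, 57.9% with median centring and 0.868% with the hybridisation controls. The median contrast over all probe sets was 0.03, 0.12 and -1.08 under these 3 scalings, so a direction is relative to a level that itself depends on the scaling. By gene, 8 peaked and 2620 dipped with the hybridisation controls, and no list described here held more than 1 peak. The same centring shifted the median of all genes to -1.02 and made the median of every list described here negative, whatever its sign as deposited.

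**Figure D2:**
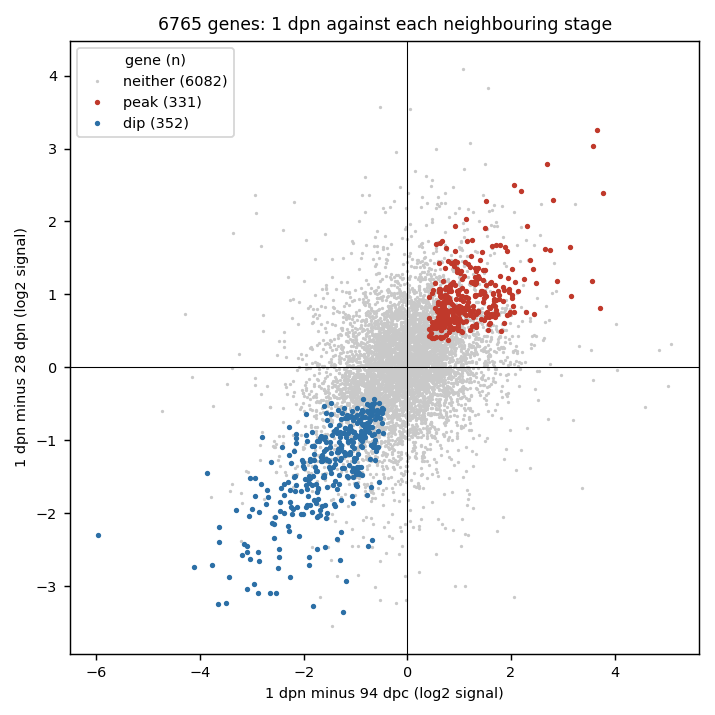
Each point is 1 of 6765 genes: the difference of its mean log2 signal at 1 dpn from 94 dpc (horizontal) and from 28 dpn (vertical), 6 animals per stage. The 331 peaks (red) lie in the upper right and the 352 dips (blue) in the lower left, as their definition requires, and the dips extend further from 0.

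Restricted to the 3 high-ratio arrays, 433 probe sets peaked (1.81%) and 800 dipped (3.34%). Of the 678 peaks 291 were called again (42.9%), and of the 1301 dips 576 (44.3%). The mean of the high-ratio arrays stayed above both neighbour means in 678 of 678 peaks and below both in 1300 of 1301 dips, and the contrast itself passed in 495 peaks and 989 dips. All 3 high-ratio values lay outside all 12 neighbouring animals in 350 peaks (51.6%) and 456 dips (35.0%), beside 2.76% and 2.75% of all probe sets. All 6 newborn values did so in 295 peaks and 339 dips, beside 1.32% and 1.46% of all probe sets. With only the 3 low-ratio arrays 1147 probe sets peaked and 2258 dipped, so the same number of animals gave more calls in that subset. Within 1 dpn, 1267 probe sets were lower (5.29%) and 664 higher (2.77%) in the low-ratio arrays. Among the dips 271 were lower in the low-ratio arrays and 11 higher, and among the peaks 82 were higher and 7 lower, so 20.8% of the dips and 12.1% of the peaks differed with the ratio in the direction of their call, which the same arrays had set. By gene, 160 of 331 peaks and 162 of 352 dips were called again with the high-ratio arrays, beside 3.33% and 3.25% of all genes called in that fit. At the median the contrast of the peaks was 1.05 with 6 arrays and 0.89 with the high-ratio arrays, and that of the dips -1.42 and -1.09.

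Of the 331 peaking genes 162 had 6 newborn values above all 12 neighbours and a newborn mean above background (2.62% of all genes had such values, without a test or a limit on the signal). The 12 with the largest contrasts included chaperones and genes of fat use. HSPB7, a small heat shock protein of heart and skeletal muscle, read 396 to 756 (median 578) at 94 dpc, 5609 to 10983 (median 7518) at 1 dpn and 1259 to 1729.8 (median 1496) at 28 dpn. Its contrast was 3.08 ± 0.18 (log2 ± SE, adjusted p = 6.30e-08). The 3 low-ratio values (10974, 5609 and 7529.9) and the 3 high-ratio values (7506, 5834 and 10983) covered the same span, and the high-ratio arrays alone gave 3.09. ACADVL, the dehydrogenase that opens the oxidation of very long chain fatty acids, read 1151 to 3014 (median 2329), 13726 to 20864 (median 18726) and 3181 to 9279 (median 6150.4) in the same order of stages. Its contrast was 2.40 ± 0.24 (adjusted p = 7.54e-06) with 6 arrays and 2.55 with the high-ratio arrays. FABP3, the carrier of fatty acids in the cytosol of heart and muscle, read 4244 to 6363 (median 5968), 44513 to 63362 (median 49505) and 22062 to 31340.0 (median 24083). It was 8.89-fold higher at 1 dpn than at 94 dpc and 1.97-fold higher than at 28 dpn, with a contrast of 2.07 ± 0.13 (adjusted p = 1.30e-07) and 2.22 in the high-ratio arrays. CPT1B, the muscle form of the carnitine transferase that admits long chain fatty acids to mitochondria, read 486 to 1145 (median 871), 4876 to 8066 (median 6102) and 2306 to 3404 (median 2742). This gave a contrast of 2.04 ± 0.18 (adjusted p = 2.24e-06) and 1.87 in the high-ratio arrays. In the brightest probe set of all 4 genes 28 dpn stood between the fetal and the newborn level. There every newborn animal lay above every animal of both neighbours, as the naming rule requires. A dimmer probe set of ACADVL had means of 595, 1264 and 1414, with 28 dpn above 1 dpn. It was not called with 6 arrays (0.46, adjusted p = 0.200) or with the high-ratio arrays (1.00).

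SDF2L1, a resident of the endoplasmic reticulum that is induced when unfolded proteins gather there, had the largest contrast of the 12. It read 10.9 to 125 (median 18.4) at 94 dpc, 172 to 542 (median 312) at 1 dpn and 15.00 to 126 (median 30.5) at 28 dpn. Since both neighbour means lay under background, it was at least 4.14-fold higher than either (contrast 3.46 ± 0.49, adjusted p = 0.000118, 3.73 in the high-ratio arrays). MYO5B, an unconventional myosin of vesicle transport, read 73.2 to 123 (median 87.1), 647 to 1767 (median 991) and 71.3 to 240.0 (median 137). The contrast was 3.31 ± 0.25 (adjusted p = 9.94e-07) and 2.95 in the high-ratio arrays. Its newborn level was 11.9-fold and 8.23-fold that of the neighbours, and its values at the neighbouring stages lay close to background. The remaining peaks had smaller contrasts. The acyl-CoA thioesterase ACOT7 had stage means of 210.3, 877 and 154 (contrast 2.28 ± 0.29). RETSAT, which saturates retinol, had means of 1319, 6511 and 1702 (2.12 ± 0.24), and FDX1, a ferredoxin that passes electrons in mitochondria, 805, 4514 and 2029 (1.82 ± 0.18). These 3 were higher in the low-ratio arrays, by 1.41, 1.04 and 0.87 (adjusted p = 0.0174, 0.0459 and 0.0173), and peaked with the high-ratio arrays alone at 1.58, 1.60 and 1.38. SRM, the spermidine synthase, had stage means of 418, 1540.3 and 489.6 (1.77 ± 0.16) and also peaked in the high-ratio arrays. FAAH, which breaks down fatty acid amides, had 46.5, 314 and 103 (2.18 ± 0.43), and TREX1, an exonuclease that removes DNA from the cytosol, 177, 668 and 221 (1.76 ± 0.30). Neither was called with the high-ratio arrays alone, at 2.06 and 1.41. FAAH was also not called when any of 1 dpn animals 1, 2 or 5 or 28 dpn animals 4, 5 or 6 was left out, with contrasts of 2.06 to 2.17. Thus 10 of the 12 named peaks were called in the high-ratio arrays, and 12 under quantile normalization and under median centring. The number was 7 with each array centred on its hybridisation controls, where the contrast of all 12 stayed above 0, and 10 with the GAPDH ratio as a covariate, FAAH and TREX1 being lost.

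**Figure D3:**
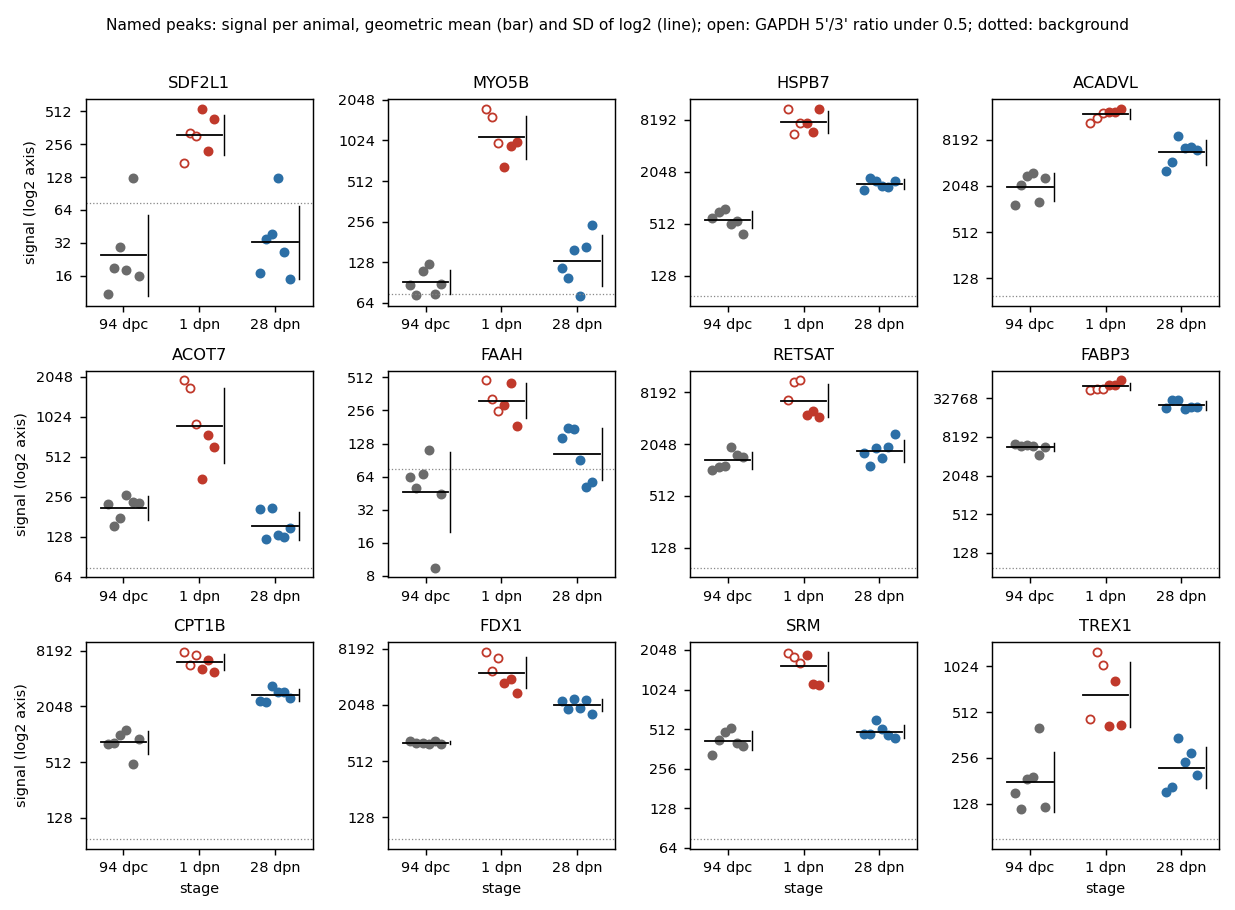
Signal of the 12 named peaks in each of 6 animals per stage on log2 axes, with the geometric mean (bar) and the SD of the log2 values (vertical line). Open circles are the low-ratio arrays of 1 dpn and the dotted line is the background signal of 74.7; in every panel the 6 newborn values lie above the 12 others, which the naming rule requires.

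Genes that carry and oxidise fatty acids supplied several of the peaks. Of 18 PPAR target genes 7 peaked and 0 dipped, with a median contrast of 0.92 (1.05 in the high-ratio arrays), beside peaks in 4.89% and dips in 5.20% of all genes and their median of -0.01; the hybridisation controls gave -0.09 beside -1.02. The peaking members were ANGPTL4, CPT1B, FABP3, PLIN2, ACSL1, ACADVL and TXNIP, of which 4 were called again with the high-ratio arrays. ANGPTL4, an inhibitor of lipoprotein lipase, read 94.8 to 190.0 (median 128), 1035 to 2614 (median 1933) and 690.3 to 1411 (median 1093). Its newborn values overlapped those of 28 dpn, and its contrast was 2.26 ± 0.22 (adjusted p = 4.47e-06). It was not called as a peak with the high-ratio arrays (2.12), or without any of 1 dpn animals 1, 2, 3 or 6 or 28 dpn animals 1, 2 or 4 (contrasts 2.16 to 2.27). A dimmer probe set of ANGPTL4, with means of 111, 284 and 591, was not called (0.15, and 1.39 in the high-ratio arrays). Its low-ratio minus high-ratio difference was -2.48 (adjusted p = 0.00126). TXNIP, a brake on glucose uptake and the brightest member, had stage means of 18932, 38942 and 21993 (0.93 ± 0.16). It was not called with the high-ratio arrays (0.75) or with quantile normalization (0.56). Of 18 enzymes and carriers of mitochondrial beta oxidation 3 peaked (16.7%) and 0 dipped: CPT1B and ACADVL, which are also in the PPAR list, and HADHA. HADHA, a subunit of the trifunctional protein of long chain oxidation, had stage means of 2656, 10115 and 6142 (1.32 ± 0.15, 1.12 in the high-ratio arrays, where it was not called). The contrast passed upward in 12 of the 18, these 3 included, and downward in 1, beside 13.7% and 14.9% of all genes, and the list's median was 0.92. HADH, the brightest member, had means of 6212, 12138 and 13964, so that its mean at 28 dpn was above that at 1 dpn.

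Most genes of the respiratory chain and citric acid cycle passed the contrast upward, and a few of them peaked. In the respiratory chain and ATP synthase 27 of 36 genes passed the contrast upward and 0 downward, beside 13.7% and 14.9% of all genes, and 5 peaked (13.9%, beside 4.89% of all genes). COX7A2, a subunit of cytochrome oxidase, read 6538 to 10030.0 (median 8965), 14907 to 30272 (median 25002) and 8291 to 10416 (median 9570.2). Its contrast was 1.40 ± 0.15 (adjusted p = 1.13e-05) and 1.23 in the high-ratio arrays, and its newborn values did not overlap the neighbours. NDUFB8 and NDUFA2 of complex I had stage means of 8718, 30294 and 21449 and of 5624, 16694 and 10342, with contrasts of 1.15 ± 0.12 and 1.13 ± 0.14. ATP5L of the ATP synthase had 13606, 34234 and 23371 (0.94 ± 0.14). The high-ratio arrays alone called COX7A2, NDUFA2 and ATP5L but not NDUFB8, which was also not called without 28 dpn animal 6 (1.12). ATP5G3, the brightest member, was at 22417, 48423 and 44737 and did not peak. Of 17 citric acid cycle enzymes 10 passed the contrast upward and 1, IDH3B, peaked (5.88%, close to the share of all genes). IDH3B, a subunit of the mitochondrial isocitrate dehydrogenase, had means of 1522, 3971 and 1692 (1.31 ± 0.14, 1.38 in the high-ratio arrays). The medians of the respiratory and citric acid cycle lists were 0.71 and 0.57 as deposited, 0.46 and 0.41 with quantile normalization. They were -0.29 and -0.44 with the hybridisation controls, where the median of all genes was -1.02. Among 13 genes of glycogen turnover and gluconeogenesis PCK2, the mitochondrial form of the enzyme that makes phosphoenolpyruvate, peaked (7.69% of the list), with stage means of 54.3, 349.6 and 50.6 (2.74 ± 0.47). It read 773, 678 and 984 in the low-ratio arrays and 112, 94.6 and 336 in the high-ratio ones, which still peaked alone (1.54). The glycogen phosphorylase of muscle, PYGM, at 6656, 38244 and 52347 did not peak, and its contrast of 1.03 ± 0.16 was -0.31 with the mean of all its probe sets.

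Some chaperones peaked in each of 3 compartments, the cytosol, the mitochondria and the endoplasmic reticulum. Of 19 heat shock chaperones 4 peaked (21.1%, beside 4.89% of all genes) and 1 dipped (5.26%, beside 5.20%). The list was split, since the contrast passed upward in 6 of the 19 and downward in 6, beside 13.7% and 14.9% of all genes. BAG3 peaked, with stage means of 1985, 5805 and 4075 (1.03 ± 0.13), but was not called with the high-ratio arrays (0.88). It was also not called without any of 1 dpn animals 1, 2, 3 or 6 or 28 dpn animals 1, 4, 5 or 6 (0.99 to 1.03). HSPE1 and HSPD1, the partners that fold proteins in the mitochondrial matrix, had stage means of 12734, 33848 and 12223 and of 4908, 11053 and 5956, with contrasts of 1.44 ± 0.15 and 1.03 ± 0.18. HSPA9, the mitochondrial member of the HSP70 family, read 4037 to 5318 (median 5066), 11522 to 30008 (median 19884) and 6591 to 11549.5 (median 9561) (1.52 ± 0.20, adjusted p = 6.09e-05). With the high-ratio arrays HSPE1 was called again, at 1.20, and these probe sets of HSPD1 and HSPA9 were not, at 0.84 and 1.15. A dimmer probe set of HSPA9, with means of 1547, 4620.4 and 2219, peaked with 6 arrays (1.32) and with the high-ratio arrays (1.27). HSPA8, the constitutive cytosolic member and the brightest of the list, was at 11626, 20066 and 25059.5 and did not peak. The list's median was 0.23 and -0.03 with quantile normalization. Of 7 small heat shock proteins HSPB7 and HSPB6 peaked (28.6%). HSPB6 had stage means of 1999, 8382 and 3708 (1.62 ± 0.21) and was not called with the high-ratio arrays (1.17). A further probe set of HSPB6 dipped (-0.64). CRYAB, which guards the Z-disc and the intermediate filaments, read 4875 to 9799 (median 7362), 14736 to 56128 (median 30180.4) and 13591 to 21507 (median 17809.5). It did not peak with 6 arrays (1.34 ± 0.24) but did with the high-ratio arrays (1.85), with quantile normalization and without 1 dpn animal 2 (1.53). Of 16 genes of endoplasmic reticulum stress 3 peaked (18.8%), SDF2L1, CRELD2 and HYOU1, and none dipped. HYOU1, a chaperone of that compartment, read 496 to 679 (median 608), 737 to 1082 (median 847) and 455 to 567 (median 494) without overlap. Its contrast passed in both fits (0.67 ± 0.12, adjusted p = 0.000750, 0.59 in the high-ratio arrays), and it was called in both. CRELD2 was at 412, 815 and 405 (1.00 ± 0.26). It was not called with the high-ratio arrays (0.65) or without 1 dpn animal 2 or 3 or 28 dpn animal 4 (0.81 to 0.97). Its newborn values ran from 345 to 1574, across those of both neighbours. HSPA5, the main chaperone of the compartment and the brightest member, was at 7695, 8179 and 5369 and did not peak.

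Ribosomal protein and proteasome genes held peaks, whose number depended on the scaling. Of 59 cytosolic ribosomal protein genes 23 peaked (38.98%, beside 4.89% of all genes) and none dipped, 12 of the 23 again with the high-ratio arrays, and the median contrast was 0.45. With median centring 27 peaked, and with quantile normalization none peaked, 1 dipped and the median was 0.06, equal to that of all genes (0.07) within 0.01. With the hybridisation controls 0 peaked and 22 dipped. RPLP2, an acidic protein of the ribosomal stalk, had stage means of 17498, 33979 and 13304 (1.16 ± 0.17), and RPL31 of the large subunit had 31443, 54418 and 27838 (0.88 ± 0.13). RPS20, the brightest of them, had means of 41551, 64900.3 and 53516 and did not peak. Of 30 proteasome subunits 8 peaked (26.7%) and none dipped, 6 of the 8 again with the high-ratio arrays. The peaks of the list numbered 6 with quantile normalization and 9 with median centring, whereas with the hybridisation controls 0 peaked and 8 dipped. PSMB4, a subunit of the catalytic core, read 6183 to 9002 (median 7586), 13275 to 23781 (median 14762) and 7630.1 to 9418 (median 8409). Its contrast was 0.99 ± 0.14 (adjusted p = 0.000103) and 1.13 in the high-ratio arrays. PSMA7, of the same core and the brightest member, had means of 13315, 34984 and 17354 (1.20 ± 0.17). PSMD3 and PSMD2 of the regulatory particle had 1296, 2581 and 1455 (0.91 ± 0.15) and 1686, 3530.3 and 2303 (0.84 ± 0.12). These 4 were called with the high-ratio arrays, and the proteasome list's median was 0.47 as deposited and 0.35 with quantile normalization. Of its 8 peaks 2 were also above 188 dpn, where 27.7% of all genes were lower than at 1 dpn. Of 58 mitochondrial ribosomal proteins, a family chosen after its values were seen, 12 peaked (20.7%) and none dipped (median 0.46, and 0.46 with quantile normalization), 5 of the 12 again with the high-ratio arrays; with the hybridisation controls 0 peaked and 15 dipped. MRPL2 was at 1227, 5377 and 2604 (1.59 ± 0.19) and MRPS12 at 573, 2045 and 1093 (1.37 ± 0.17). MRPL2 was not called with the GAPDH ratio as a covariate (1.44). A dimmer probe set of MRPL2 (0.41) and the dimmer ones of MRPS12 (0.94 and 0.65) were not called with 6 arrays. With the high-ratio arrays these dimmer probe sets peaked, at 1.15, 1.54 and 1.37. With each array centred on its hybridisation controls the medians of these 3 lists were -0.55, -0.53 and -0.55, beside -1.02 for all genes.

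Some translation factors dipped, and tRNA synthetases held both peaks and dips. Of 27 translation factors 4 dipped (14.8%, beside 5.20% of all genes) and 1 peaked (3.704%, below the 4.89% of all genes). With median centring 2 dipped. Of the 4 dips 2 were called again with the high-ratio arrays, where 3.25% of all genes dipped. The other dips, EIF5B (-1.65) and EIF4B (-0.73), were not called there (-1.17 and -0.36). EIF4A2, a helicase of initiation, read 15664 to 19989 (median 17710.1), 5015 to 13122 (median 9839) and 22093 to 28441 (median 24254) without overlap (-1.27 ± 0.20, adjusted p = 0.000259). It differed by -1.10 between low-ratio and high-ratio arrays (adjusted p = 0.00110), with -0.72 in the high-ratio arrays. EIF3E, a subunit of the initiation factor that binds the small ribosomal subunit, was at 9312, 4435 and 6734 (-0.84 ± 0.14), with -0.91 in the high-ratio arrays, where both were called. EEF1B2, which recharges the elongation factor and was the brightest of the list, was at 33663, 51094 and 41765 and did not peak. Of 15 aminoacyl-tRNA synthetases 4 peaked (26.7%) and 2 dipped (13.3%). AARS, MARS and VARS, which charge the tRNAs of alanine, methionine and valine, had means of 1637, 4701 and 2383, of 1098, 2754 and 1232 and of 539, 1304 and 581 with contrasts of 1.25 ± 0.23, 1.24 ± 0.23 and 1.22 ± 0.16. VARS alone was called with the high-ratio arrays, at 1.03 against 0.78 and 0.63. DARS, the aspartate enzyme, was the member with the largest dip (-2.99 ± 0.49), but its probe sets disagreed, as the comparison of probe sets shows. KARS, the brightest member, dipped too (-0.60) but was not called with median centring (-0.41). It was also not called without any of 1 dpn animals 1, 2 or 3 or 28 dpn animals 2, 3, 4 or 6 (-0.61 to -0.54). Among 22 antioxidant genes and metallothioneins 3 peaked (13.6%) and none dipped. GCLM, of glutathione synthesis, was at 80.7, 275 and 138 (1.38 ± 0.21), TXNRD1, a thioredoxin reductase, at 749, 1335 and 645 (0.94 ± 0.18), and PRDX1, a peroxiredoxin, at 5173, 9615 and 5631 (0.83 ± 0.15). Of these PRDX1 was called with the high-ratio arrays (0.97), and PRDX2, the brightest member, was at 6123, 11781 and 13304 and did not peak. The dimmer probe sets of TXNRD1 were not called, with contrasts of 0.13 and -0.05.

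**Figure D4:**
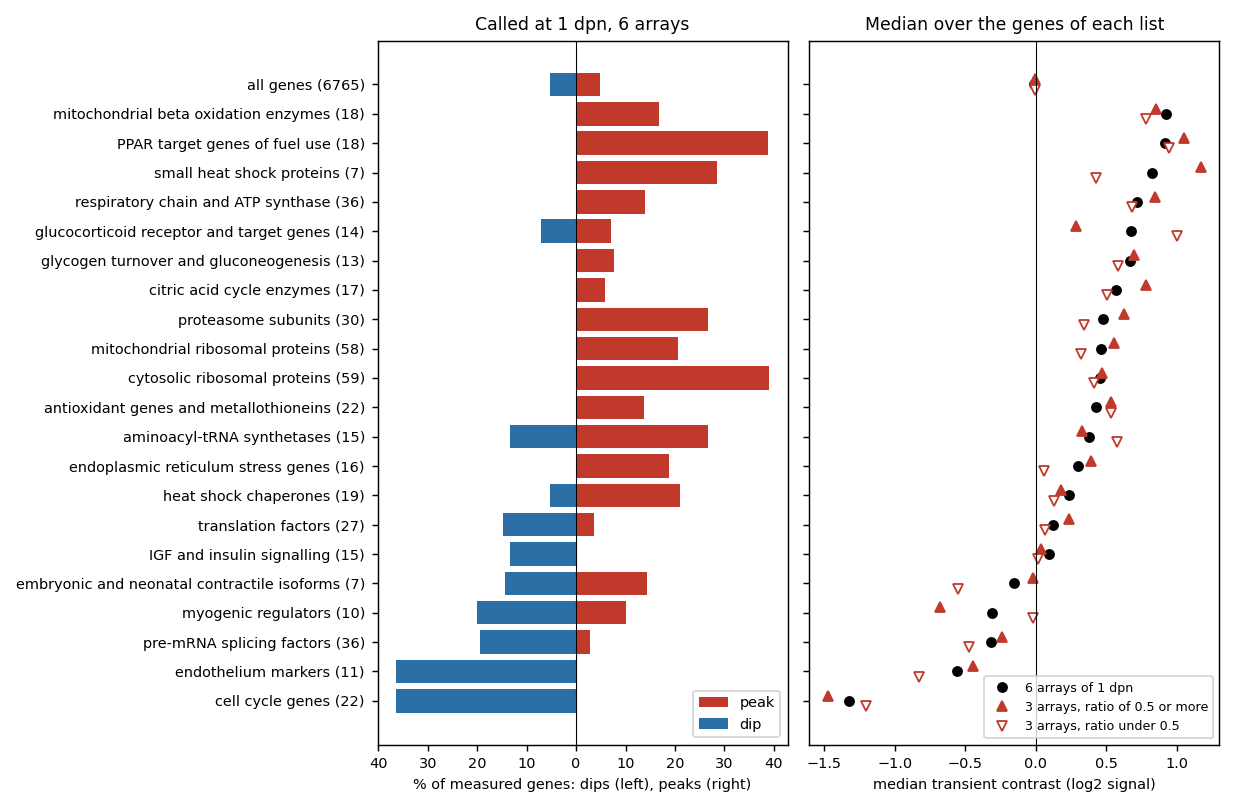
Left, the percent of measured genes of each list that peaked (red, to the right) or dipped (blue, to the left) with 6 arrays of 1 dpn, with the number of genes in brackets; right, the median contrast of the list with 6 arrays (black), with the 3 high-ratio arrays (filled triangles) and with the 3 low-ratio arrays (open triangles). The PPAR targets and the cytosolic ribosomal proteins have the largest shares of peaks and the endothelium markers and cell cycle genes the largest shares of dips, beside 4.89% and 5.20% of all genes; the glucocorticoid list is at 0.29 and 1.00 in the 2 subsets.

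Of the 352 dipping genes 110 had 6 newborn values below all 12 neighbours and both neighbour means above background (1.66% of all genes had such values, without a test or a limit on the signal). The 12 with the largest contrasts included a fetal contractile protein, a nuclear lamin and receptors of endocrine signals. TNNT2, the cardiac troponin T that is also made in developing skeletal muscle, read 2044 to 3776 (median 3368) at 94 dpc, 21.3 to 88.7 (median 56.9) at 1 dpn and 196 to 373 (median 227) at 28 dpn. The newborn mean lay under background, at least 40.7-fold below the fetal and at least 3.21-fold below the 28 dpn mean. The contrast was -4.13 ± 0.28 (adjusted p = 2.16e-07) and -4.02 in the high-ratio arrays. At 188 dpn its mean was 67.99, under background too. LMNB1, which encodes lamin B1 of the nuclear envelope, read 846 to 1724 (median 1272), 57.5 to 169.5 (median 148) and 318 to 697 (median 497). It was 9.83-fold and 3.89-fold lower at 1 dpn (-2.63 ± 0.24, adjusted p = 3.59e-06). The low-ratio arrays (152, 115 and 168) were no lower than the high-ratio ones (57.5, 169.5 and 143), which alone gave -2.81. DBR1, the enzyme that opens intron lariats, read 84.97 to 208 (median 130.3), 7.53 to 18.3 (median 12.5) and 51.2 to 149 (median 91.1), with every newborn value under background in both kinds of array (-3.17 ± 0.25, -2.96 in the high-ratio arrays). These 3 dips were thus as large or nearly as large in the arrays with high 5′ signal.

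For DARS, GHR, NR3C1, LOC100510904 and GPBP1 the low-ratio arrays were lower than the high-ratio ones past the threshold. GHR, the growth hormone receptor, read 253 to 592 (median 412) at 94 dpc and 337 to 527 (median 399) at 28 dpn. At 1 dpn it was 13.3, 15.4 and 28.9 in the low-ratio arrays and 225, 212 and 67.4 in the high-ratio arrays. The former differed from the latter by -3.03 (log2, adjusted p = 0.000374), and both lay below every neighbouring animal. Its contrast was -2.97 ± 0.52 with 6 arrays (adjusted p = 0.000621) and -1.45 with the high-ratio arrays, where it was again called. NR3C1, the glucocorticoid receptor, read 551 to 916 (median 808) and 412 to 620.0 (median 495) at the neighbours. The newborns read 51.9, 13.99 and 27.2 in the low-ratio arrays and 219, 263 and 281 in the high-ratio arrays, a difference of -3.23 (adjusted p = 3.75e-05). Its contrast was -2.89 ± 0.52 with 6 arrays and -1.28 with the high-ratio arrays, called in both. It was -0.72 with the mean of all its probe sets, where it was not called. LOC100510904, a locus without a gene name, and GPBP1, a transcription factor, had contrasts of -3.45 ± 0.42 and -2.76 ± 0.42 with 6 arrays, -2.23 and -1.71 with the high-ratio arrays. The low-ratio minus high-ratio difference was -2.44 and -2.09 (adjusted p = 0.000577 and 0.0135). The other 4 of the 12 dips did not differ between the kinds of array past the threshold. MSTN, or myostatin, which restrains muscle growth, read 74.7 to 388 (median 257), 7.87 to 56.9 (median 43.1) and 76.97 to 339 (median 175). All 6 newborn values were under background, its mean at least 2.99-fold and at least 2.34-fold below the neighbours. The contrast was -2.71 ± 0.43 (adjusted p = 0.000299) and -2.13 in the high-ratio arrays, with a low-ratio minus high-ratio difference of -1.17 (adjusted p = 0.331). A dimmer MSTN probe set, with means of 166, 10.6 and 115, also dipped in both fits (-3.70 and -4.83), and its difference had the opposite sign (2.25, adjusted p = 0.0513). MOSPD2, a tether between membranes of organelles, FAR1, a reductase of ether lipid synthesis, and CTR9, of a complex that travels with RNA polymerase II, had neighbour means of 149 and 125, 148 and 142, and 176 and 209. Their newborn means were under background, at 13.2, 17.3 and 30.99, and their low-ratio arrays differed by -1.54, -1.37 and -1.54 (adjusted p = 0.123, 0.145 and 0.0745). All 12 named dips were called with the high-ratio arrays, with quantile normalization and with both ways of centring, and 8 of the 12 with the GAPDH ratio as a covariate. The 4 not called with the covariate were GHR, NR3C1, GPBP1 and MSTN, whose contrasts were then -1.31, -1.41, -1.84 and -1.79.

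**Figure D5:**
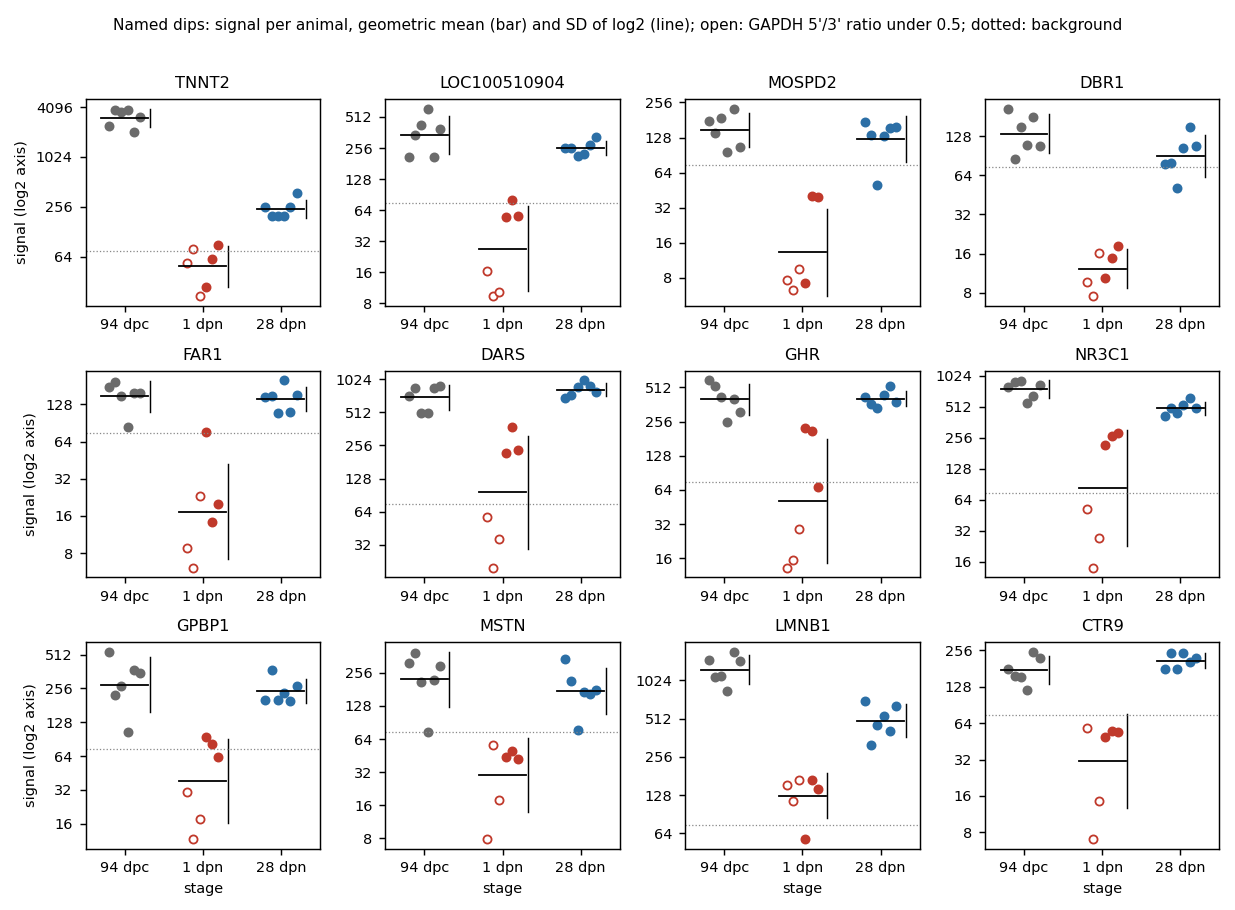
Signal of the 12 named dips in each of 6 animals per stage on log2 axes, with the geometric mean (bar) and the SD of the log2 values (vertical line). In the panels of DARS, GHR and NR3C1 the open circles, the low-ratio arrays of 1 dpn, lie below the filled ones, while in LMNB1 and DBR1 they mix; the dotted line is the background signal of 74.7.

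In the pathways of GHR and NR3C1 the counts of calls were small. Of 15 genes of IGF and insulin signalling GHR and MSTN dipped (13.3%, beside 5.20% of all genes) and none peaked, with a median of 0.09. The probe sets of IGF2, the fetal growth factor, disagreed. The brightest, also the brightest of the list, was at 11018, 4545 and 3796 and did not dip (-0.51 ± 0.30). The next 4 in brightness had contrasts of -1.30 to -1.08 and passed the contrast without being called. The sixth, at 1610.2, 123 and 693, dipped with 6 arrays (-3.11, adjusted p = 0.000499) and with the high-ratio arrays (-3.29). Of 14 genes of the glucocorticoid receptor and its targets NR3C1 dipped and GLUL, the glutamine synthetase, peaked (7.14% each), with stage means of 7899, 15697 and 8762 (0.92 ± 0.21). GLUL was not called with the high-ratio arrays (0.67), with quantile normalization (0.66) or with the mean of its probe sets (0.28). The contrast passed upward in 6 of the 14, beside 13.7% of all genes, and downward in 1. The list's median was 0.67 with 6 arrays, 0.29 with the high-ratio and 1.00 with the low-ratio arrays. None of 17 immediate early genes, which answer stress and hormones within minutes, and none of 13 amino acid response genes peaked or dipped.

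Genes of cell division had the lowest median contrast of the lists described here. Of 22 cell cycle genes 8 dipped (36.4%, beside 5.20% of all genes) and none peaked, 4 of the 8 again with the high-ratio arrays, and the median contrast was -1.32 (-1.47 in the high-ratio arrays, -1.15 with quantile normalization). STMN1, which regulates microtubules and was the brightest member, read 9095 to 11519.8 (median 9529), 1282 to 3244 (median 2138) and 3991 to 5328 (median 4615) without overlap. Its contrast was -1.75 ± 0.16 (adjusted p = 3.90e-06) and -1.87 in the high-ratio arrays. CCNB1, the cyclin of entry into mitosis, read 271 to 946 (median 579.9), 39.2 to 152 (median 77.9) and 151 to 275 (median 239), touching 28 dpn at its edge (-2.22 ± 0.29, -2.61 in the high-ratio arrays). UBE2C, which marks mitotic proteins for destruction, varied widely among newborns, at 19.9, 30.2 and 248 in the low-ratio and 19.4, 266 and 324 in the high-ratio arrays (-3.02 ± 0.56). It was not called with the latter (-2.44). TYMS, the thymidylate synthase, had a newborn mean under background (206, 23.02 and 123) and was likewise not called with the high-ratio arrays (-2.57). TOP2A, a topoisomerase of dividing cells, was at 555, 85.1 and 273 (-2.19 ± 0.47, -2.97 in the high-ratio arrays). It was not called without 1 dpn animal 1 or any of 28 dpn animals 1, 2, 4, 5 or 6 (-2.25 to -2.16). Of the 8 dips 1 was also below 188 dpn, beside 17.2% of all genes, and the 188 dpn means of CCNB1, TOP2A and STMN1 were 34.4, 40.1 and 1811. Of 11 endothelium markers 4 dipped (36.4%) and none peaked (median -0.56). TIE1 and TEK, receptors of vessel growth, were at 332, 64.01 and 255 (-2.18 ± 0.33) and 477, 242 and 411 (-0.87 ± 0.13) and were called with the high-ratio arrays. The junction proteins PECAM1 and CDH5 were at 4560.1, 2139 and 3395 (-0.88 ± 0.16) and 3509, 1462 and 2255 (-0.94 ± 0.17). They were not called with the high-ratio arrays (-0.76 and -0.77), and CDH5 was also not called without any of 1 dpn animals 1, 2 or 3 or 28 dpn animals 1, 2, 5 or 6 (-0.94 to -0.88). The 11 markers summed to 4795 to 8606 in the newborns, beside 8723 to 15364 in the fetuses and 8062 to 11716 at 28 dpn. At 188 dpn their sum was 3822 to 5201. Of the 4 endothelium dips 1 was also below 188 dpn, beside 17.2% of all genes.

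Splicing factors dipped more often than they peaked. Of 36 genes 7 dipped (19.4%, beside 5.20% of all genes) and 1 peaked (2.78%, beside 4.89%), with a median of -0.32. Of the 7 dips 4 were called again with the high-ratio arrays, where 3.25% of all genes dipped. With quantile normalization 5 dipped and 0 peaked, and with median centring 5 and 2. LUC7L3, a protein of the U1 particle that recognises the start of introns, read 415 to 1798 (median 1340.1), 90.9 to 487 (median 228) and 727 to 932 (median 828) (-2.22 ± 0.32, adjusted p = 0.000136, -2.17 in the high-ratio arrays), overlapping the fetal stage through 94 dpc animal 4. HNRNPU and CLK1, a nuclear RNA binding protein and a kinase of splicing factors, were at 453, 149 and 423 (-1.56 ± 0.21) and 1335, 435 and 1044 (-1.44 ± 0.24) and were called again. SF3B1, of the branch point complex, at 2651, 891 and 1820.0 (-1.30 ± 0.21) was not called again. HNRNPK, the brightest member, was at 9253, 7301 and 8076 and did not dip. The lists of fetal contractile isoforms and of myogenic regulators are short, and 1 gene is a large share of either. Of 7 embryonic and neonatal contractile isoforms TNNT2 dipped (14.3%) and ACTC1, the cardiac actin of fetal muscle, peaked, with stage means of 33342, 52745 and 29565 (0.75 ± 0.17). ACTC1 was not called with the high-ratio arrays (0.68), with quantile normalization (0.40) or in the fit of all 24 arrays. Among 10 myogenic regulators MEF2D, a partner of the myogenic factors, peaked, with stage means of 2673, 4412 and 2387 (0.80 ± 0.17) and MYF6, a myogenic factor of mature fibres, dipped, with means of 1182, 539 and 1371 (-1.24 ± 0.26), besides MSTN, so 10.00% peaked and 20.00% dipped. Neither MEF2D nor MYF6 was called with the high-ratio arrays (0.55 and -0.81), and with the mean of all its probe sets MYF6 was at 0.02. None of 24 Z-disc and giant sarcomere proteins, 9 genes of calcium handling or 14 glycolytic enzymes peaked or dipped.

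Among the genes whose call was lost with the high-ratio arrays alone, the 6 whose contrast changed most were dips. CNOT7, of the complex that shortens poly(A) tails, read 10.1, 18.2 and 105 in the low-ratio and 372, 565 and 186 in the high-ratio arrays, beside 428 to 586 at 94 dpc and 435 to 724 at 28 dpn. Its contrast moved from -2.48 ± 0.65 to -0.65, and the high-ratio values reached into the fetal range. TSN, or translin, read 8.94, 13.2 and 6.43 and 160.3, 155 and 90.7 and moved from -2.36 ± 0.61 to -0.44. RBPJ, the DNA binding partner of Notch receptors, and LRP6, a coreceptor of Wnt ligands, moved from -2.91 ± 0.58 to -1.42 and from -2.54 ± 0.57 to -1.07. FCGR3A, an antibody receptor of leukocytes, moved from -2.53 ± 0.73 to -0.91, and TMEM115, a Golgi protein, from -1.93 ± 0.48 to -0.59. FCGR3A read 191, 49.1 and 10.6 in the low-ratio and 279, 378 and 815 in the high-ratio arrays, and 8 macrophage markers together summed to 1579.8 to 2429.7 and 2777 to 5606 there. The sums were 3328 to 27004 at 94 dpc and 3716 to 9203 at 28 dpn, and their part in the dip was not tested. The low-ratio minus high-ratio difference ran from -3.84 for TSN to -2.68 for TMEM115. These values are of the brightest probe set of each gene. A dimmer one of RBPJ dipped with 6 arrays and with the high-ratio arrays (-1.49 and -1.52), and so did a dimmer one of LRP6 (-2.9999 and -2.10). A further dimmer one of RBPJ was not called (-1.24). The dimmer ones of CNOT7 had contrasts above 0 (0.33 and 0.77) and were not called. The same held for that of FCGR3A (0.54), whose stage means were all under background. These calls were also lost after leaving out 1 animal, in some cases with little change of the contrast. CNOT7 was not called after leaving out 1 of 1 dpn animal 2 or 28 dpn animals 5 or 6 (-2.46 to -2.004). RBPJ was not called after leaving out 1 of 1 dpn animal 1 or 28 dpn animals 1, 4, 5 or 6 (-2.91 to -2.71). TMEM115 was not called after leaving out 1 of 1 dpn animals 1, 2 or 3 or 28 dpn animal 5 (-1.88 to -1.61). LRP6 was not called after leaving out 1 of 1 dpn animals 1 or 3 or 28 dpn animals 1, 2, 3, 4, 5 or 6 (-2.57 to -1.94). FCGR3A was not called after leaving out 1 of 94 dpc animals 5 or 6 or 1 dpn animals 1, 2 or 3 or 28 dpn animals 2, 3, 4, 5 or 6 (-2.62 to -1.78). TSN was not called after leaving out 1 of 94 dpc animals 1, 2, 3, 5 or 6 or 1 dpn animals 1, 2 or 3 or 28 dpn animals 1, 2, 3, 5 or 6 (-2.40 to -1.88).

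The older animals of 188 dpn were set beside the newborns as a description, since that comparison shares the 6 newborn arrays with the contrast. Against 188 dpn 566 of the 678 peaks (83.5%) were higher at 1 dpn and 903 of the 1301 dips (69.4%) lower, beside 20.8% and 14.1% of all probe sets, and 7 peaks and 37 dips went the opposite way. The dips with the largest differences were MSS51, a gene of muscle mitochondria, EGF, the epidermal growth factor, and ALDH2, the mitochondrial aldehyde dehydrogenase, which dipped at 1 dpn and had means at 28 dpn and 188 dpn above the fetal one. MSS51 read 423 to 548 (median 456), 136 to 321 (median 185) and 1289 to 3496 (median 1862), and its mean at 188 dpn was 12099 (contrast -2.30 ± 0.21, adjusted p = 3.85e-06, -1.94 in the high-ratio arrays). EGF had means of 1316, 372 and 3592 and 7124 at 188 dpn (-2.55 ± 0.35, -2.51 in the high-ratio arrays), although newborn animal 5 at 1397 lay within the fetal range. ALDH2 had means of 2962, 1751 and 9529 and 30115 (-1.60 ± 0.20, -1.79 in the high-ratio arrays), and was not called with median centring (-1.41) or with the GAPDH ratio as a covariate (-1.65). The 188 dpn arrays differed among themselves in hepatocyte markers, whose 15 signals summed to 260647, 204349 and 40578 in animals 1, 2 and 3 and to 2152, 1426 and 2593 in animals 4, 5 and 6. ALDH2 read 25223, 27053 and 33767 in the former and 32034, 38995 and 25917 in the latter. EGF read 8506, 6859 and 6271 and 5782, 7157 and 8629.7, and MSS51 15035, 20756 and 13572 and 8426, 11877 and 7401. MSS51 was thus higher in the animals with high hepatocyte markers, and all 3 genes lay above every 28 dpn animal in animals 4, 5 and 6 too; the part of these markers in the other comparisons with 188 dpn was not tested. Among the peaks MYO5B, ACOT7 and ACTC1 had the largest differences. MYO5B and ACOT7 had means of 55.7 and 24.1, both under background, at 188 dpn. FABP3, CPT1B and ACADVL had means of 8791, 719 and 3424 at 188 dpn, 5.76-fold, 8.62-fold and 5.16-fold below the newborn level.

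Different probe sets of a gene did not always give the same call. Of 137 peaking genes with another probe set, 18 had a further one that peaked, 11 had one that dipped, and in 56 all others had a contrast above 0. Of 138 dipping genes, 57 had a further probe set that dipped, 3 had one that peaked, and in 90 all others were below 0. In 17 of 2261 genes with several probe sets 1 peaked and another dipped. In DARS the brightest probe set had stage means of 705, 96.1 and 825 and dipped (-2.99). It read 57.4, 19.8 and 36.2 in the low-ratio and 220.5, 376 and 232 in the high-ratio arrays, whereas another had means of 118, 552 and 249 and peaked (1.69). The dipping one differed with the GAPDH ratio by -2.96 (adjusted p = 7.50e-05) and the peaking one by 0.37 (adjusted p = 0.719). PDIA3, a disulfide isomerase of the endoplasmic reticulum, had a probe set at -3.72 that differed with the ratio by -3.68 and one at 1.03 that differed by -0.12, and neither was its brightest. FAU, the precursor of a ribosomal protein, disagreed without such a difference, with a probe set at 0.57 and means from 29816 to 44987, and another at -2.26 and means from 55.6 to 363. They differed with the ratio by -0.13 and -0.11. DARS, PDIA3 and FAU were picked from the 17 after their values were seen.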

How the data were processed

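Signal intensities of 24118 probe sets on 24 arrays were used as deposited by the authors, who scaled them on each array with GCOS 1.1.1, per the submitters' processing notes; RNA input was 0.5 ug, per the labels' protocols. After 183 control probe sets were left out, log2 intensities of the 18 arrays of 94 dpc, 1 dpn and 28 dpn were fitted with 3 stage means (limma 3.58.1 in R 4.3.3, lmFit and eBayes, 15 residual degrees of freedom, Benjamini-Hochberg over 23935 probe sets, adjusted p of 0.05). Comparisons with 188 dpn came from a fit of all 24 arrays. Tables were made with Python 3.11.15 and pandas 2.3.3, and the rule for calls was run on simulated data. Those data held independent values with the same SD in every stage. They leave out shared mothers and the split within 1 dpn, so they give no support to the calls. Of the tested probe sets 10069 have 1 gene symbol in the array's annotation, 198 several and 13668 none, and a gene was read by its probe set with the highest mean. Arrays have no counting depth: their number and the background limit the precision, and 38.0% of the tested probe sets had a mean under the background of 74.7. A fold against a stage mean under background was computed against 74.7 and is given as a bound. The named genes are the 12 largest peaks and dips without overlap, up to 4 called members and the brightest member of each list described, up to 6 genes whose call is lost with the high-ratio arrays and up to 6 with the largest difference from 188 dpn. Not every one of them is described in the text. The members and lists were chosen with earlier results of these data known. The mitochondrial ribosomal family, MRPL2 and MRPS12, and the probe sets of DARS, PDIA3 and FAU were picked after their values were seen. Alternatives changed the scaling, an added constant, the filter, the arrays, a covariate, the variance model, the threshold and the definition. Centring on the hybridisation controls was added after seeing the data.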

Additional observations from a re-analysis of the deposited data

Results flagged for a closer look

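In 99 named genes and 3 stages, 297 groups of 6 animals were looked at, and in 29 of them, over 27 genes, the highest or the lowest animal stood further from the nearest other one than Dixon's critical value for 6 allows as a share of the group's range. Chance alone marks about 1 in 20 groups. Animals 5 and 4 of 94 dpc held most of them. In 94 dpc animal 5 the lowest signal was 4244 for FABP3 (nearest 5751), 20273 for RPL27 (nearest 27553), 30906 for RPS20 (nearest 42082), 5994 for NDUFB8 (nearest 8611) and 3806 for NDUFA2 (nearest 5568). There, ATP5L was lowest at 9055 (nearest 13412), ACTC1 was lowest at 25506 (nearest 32739) and TIE1 was lowest at 153 (nearest 338). In 94 dpc animal 5 the highest signal was 9779 for HSPA5 (nearest 7484) and 4570.4 for FCGR3A (nearest 690.2). In 94 dpc animal 4 the lowest signal was 83.8 for FAR1 (nearest 149), 74.7 for MSTN (nearest 211), 92.4 for EIF5B (nearest 369), 5967 for EIF3E (nearest 9356) and 415 for LUC7L3 (nearest 1108). There, LRP6 was lowest at 325 (nearest 517). In 28 dpn animal 3 the lowest signal was 49.9 for MOSPD2 (nearest 133), 1940.2 for MEF2D (nearest 2365), 805 for CLK1 (nearest 1033) and 1766 for EGF (nearest 3534). In 28 dpn animal 3 the highest signal was 2236 for IDH3B (nearest 1701). In 1 dpn animal 4 the lowest signal was 57.5 for LMNB1 (nearest 115), 14907 for COX7A2 (nearest 23658) and 10.01 for TOP2A (nearest 89.9). In 1 dpn animal 1 the lowest signal was 4647 for PRDX2 (nearest 12262). In 1 dpn animal 1 the highest signal was 5676 for EIF3E (nearest 4301). In 28 dpn animal 6 the lowest signal was 17962 for NDUFB8 (nearest 21853). In 28 dpn animal 2 the lowest signal was 254 for HNRNPU (nearest 414). In 28 dpn animal 1 the highest signal was 4349 for PECAM1 (nearest 3433).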

How the results depend on the processing

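The counts of probe sets past the contrast (2009 higher, 3587 lower), of peaks (678) and of dips (1301) moved with the scaling, the newborn arrays used, the covariate, the threshold and the definition. With median centring they were 3186, 2318, 1055 and 866, and with the hybridisation controls 132, 15080, 46 and 8024. With the high-ratio arrays alone they were 1224, 2351, 433 and 800, with the GAPDH ratio as a covariate 1019, 1757, 322 and 538, and at an adjusted p of 0.01 1058, 1936, 315 and 518. The low-ratio arrays alone gave 1147 peaks and 2258 dips, the contrast without the single comparisons 1890 and 3405, and a change of at least 2-fold against both neighbours 237 and 799. Under hybridisation control centring 18 peaks and 3603 dips were called again in the high-ratio arrays (341 dips under median centring), 42 peaks and 5369 dips also differed from 188 dpn, and 2399 probe sets were lower and 116 higher in the low-ratio arrays. Leaving out 1 animal gave 552 to 775 peaks, 1012 to 1509 dips, and 1614 to 2119 higher and 3129 to 3841 lower probe sets. Quantile normalization, an added constant of 16 or 64, the filter on dim probe sets, the fit of all 24 arrays, other variance models and kept control probe sets left these 4 counts within 1.5 times. Of the 99 named genes 44 lost their call with the GAPDH ratio as a covariate and 34 with the high-ratio arrays alone, and 1 gained a call in each. Of 40 named genes averaged over their probe sets, 21 stayed the same, 17 lost their call and 2 changed sign. The latter were PYGM at -0.31 and MYF6 at 0.0163. The cause of these changes was not tested. No paired analysis was possible because animals were numbered by accession only, which pairs none across stages. The 3 gilts per stage could not be a block, since the mothers are not given.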
